A study of Mus musculus with 2 samples.

Results

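The Epha3-Spock1 cells are a set of 207 mesenchymal cells of the mouse incisor in which UMIs of Epha3, Spock1, Srpx2 and Ndnf summed to at least 3, most of them from Epha3. A UMI, or unique molecular identifier, is 1 counted RNA molecule. They were chosen by measured counts from a gate of 341 cells in which the UMI sum of Ogn, Thbs2, Dpep1 and Igf1 was at least 4. That sum also had to be larger than each of 4 other 4-gene sums, which define the Fmod, Sct, Lypd1 and Tac1 gates. Within this follicle-like gate a cell became a member when Spock1, Srpx2, Ndnf and Epha3 together reached 3 UMIs. Cells also had to have 0 Ptprc UMIs, at most 1 UMI of Epcam and Cdh1 together, and at most 1 of Cdh5 and Pecam1 together. The members were 60.7% of the gate (exact Clopper-Pearson 95% interval 55.3 to 65.9%) and 4.56% of the 4543 cells kept (3.97 to 5.20%). All intervals given here cover counting error only.

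Spock1 encodes testican-1, a secreted heparan sulfate proteoglycan of the extracellular matrix, and Srpx2 a secreted sushi-repeat protein that binds the urokinase receptor. Ndnf encodes a secreted, neuron-derived neurotrophic factor, and Epha3 a receptor tyrosine kinase that binds ephrins on neighbouring cells. The dental follicle is the connective tissue sac around a developing tooth. Its cells give rise to the periodontal ligament, to cementoblasts and to osteoblasts of the socket wall, and parathyroid hormone-like hormone and its receptor act in it during eruption and root formation. Periostin, encoded by Postn, is a matrix protein known for its abundance in the periodontal ligament.

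The cells came from mandibular incisors of untreated C57BL/6 mice aged 4 weeks. Pulp and dental epithelium were dissected after the jaw bone and the proximal end of the tooth had been cut away, and their cells were freed with collagenase. The tissue label reads dental mesenchyme, although 438 of the cells kept had at least 2 UMIs of Epcam and Cdh1, and 458 had at least 2 of Ptprc. Whether follicle tissue was taken on purpose is not stated, nor is the number of animals. One matrix held the UMI counts of both sequencing lanes, with no map of barcodes to lanes, so the study is 1 sample. Differences are therefore given without p-values, and none could be checked in a replicate.

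The members were set beside the 134 other cells of the follicle-like gate, which share the Ogn, Thbs2, Dpep1 and Igf1 sum, and beside 997 cells of the 4 other mesenchymal gates. Those other gates held 141 Fmod, 423 Sct, 190 Lypd1 and 243 Tac1 cells. Median depth was 7749 UMIs per cell in the members, 5197.5 in the other gate cells and 8901 in the other mesenchyme. Levels are in CPM, the UMIs of a gene summed over the cells of a group and scaled to a fixed total of all UMIs. Genes counted as measured when both groups together held 30 UMIs or more, and as called at a 2-fold ratio of CPM. Genes of the rule are the definition of the cells, and their ratios are not findings.

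Some cells in these groups carried counts of other cell kinds. At least 5 UMIs of 7 macrophage and monocyte genes were present in 1 member, against 12 of the other gate cells, where the highest cell held 321. Enamel genes (Amelx, Ambn and Enam) gave over 1% of the UMIs in 8 members, in 1 of the other gate cells and in 67 cells of the Sct gate. In 5 members stood 87.4% of the members' Amelx UMIs. Values without all such cells, 198 members, 121 other gate cells and 904 cells of other mesenchyme, are called screened below. That screen was chosen after these values had been seen.

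Epha3 carried most of the rule. It gave 1092 of the 1475 rule UMIs in the members, or 74.0%, and had a UMI in 204 of the 207 cells. Spock1 gave 117 UMIs in 66 members, Srpx2 144 UMIs in 71 and Ndnf 122 UMIs in 78. Spock1 and Srpx2, the genes the set was labelled by, were thus each seen in a minority of it, and 71 members had 0 UMIs of Spock1, Srpx2 and Ndnf together. A further 51 members had 1 such UMI and 85 had at least 2, while 167 members reached 3 UMIs by Epha3 alone. Spock1 was the least often seen of the 4 genes, and it stands in the name used here only as a gene of the rule and the label.

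The background of these shares was low in Ptprc cells, which were shallower than the members, and higher elsewhere. In the 458 Ptprc cells, with a median of 3427.5 UMIs, Epha3 had a UMI in 3 cells, Spock1 in 2, Srpx2 in 4 and Ndnf in 6. In the 997 cells of other mesenchyme, with a median of 8901 UMIs, the numbers were 96, 5, 25 and 39. Of the 243 Tac1 gate cells 36 held an Epha3 UMI and 28 a Ndnf UMI. Among 438 cells with at least 2 UMIs of Epcam and Cdh1, 23 held a Spock1 UMI. Among the members the genes overlapped in part. Spock1 and Srpx2 were both present in 27 members, Spock1 and Ndnf in 34, and Srpx2 and Ndnf in 36. In the other gate cells Epha3 had a UMI in 74 of 134 cells, so the threshold of 3 UMIs divided cells along a range and not at a gap. There were 30 members at exactly 3 rule UMIs, just inside the threshold, and 42 gate cells at 2, just outside.

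**Figure D1:**
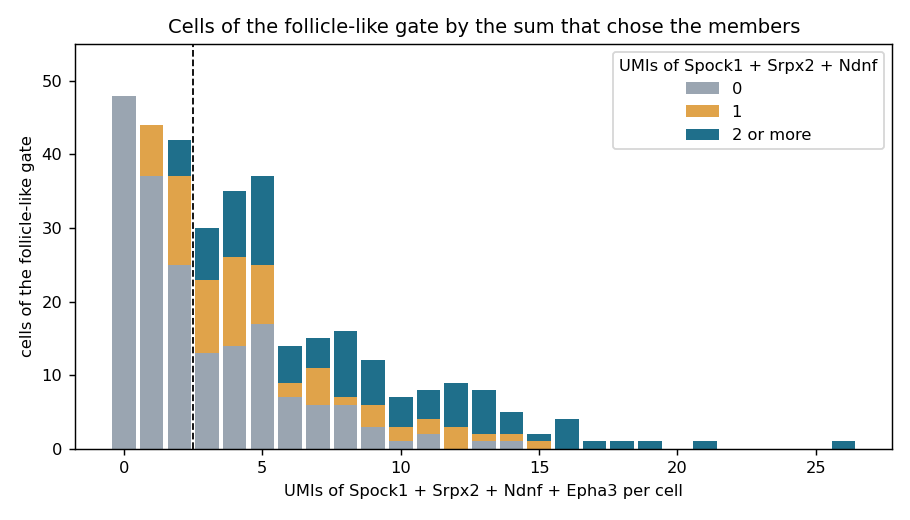
Number of cells of the follicle-like gate (vertical axis) at each UMI sum of Spock1, Srpx2, Ndnf and Epha3 (horizontal axis), coloured by the UMIs of Spock1, Srpx2 and Ndnf alone. The dashed line marks the threshold, with 207 members to its right and 134 other gate cells to its left, and counts fall without a gap across it.

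Cells on both sides of the threshold shared the gate's genes, while levels of some others differed. These levels rest on 30 cells inside and 42 outside and have no intervals. Inside, 1 cell held 39498 of the 241293 UMIs. The members at 3 rule UMIs had 1003 CPM of Igfbp3, against 543 CPM in the gate cells at 2. Acta2, smooth muscle actin, stood at 99.5 CPM just inside (24 UMIs) and 521 CPM just outside (138 UMIs). Postn stood at 224 CPM (54 UMIs) and 494 CPM (131 UMIs). Tcf7, a WNT pathway transcription factor, had 137 CPM just inside and 30.2 CPM just outside, from only 33 and 8 UMIs. Runx2, a transcription factor required for osteoblasts, was close on both sides, at 311 and 336 CPM.

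Postn, the remaining marker given for these cells, was not used by the rule. It had a UMI in 143 of 207 members, 85 of 134 other gate cells and 70 of 997 cells of other mesenchyme, against 6 of 458 Ptprc cells. Its level was 225 CPM in the members, 377 CPM in the other gate cells and 9.83 CPM in the other mesenchyme. Of those 70 cells 55 were among the 243 cells of the Tac1 gate, or 22.6% of it, where the level was 37.2 CPM. Between the members and the other gate cells the log2 ratio of Postn was -0.74 (exact conditional 95% interval -0.96 to -0.52). Thinned to 2000 UMIs per cell, 36.5% of the members and 46.6% of the other gate cells kept a Postn UMI.

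**Figure D2:**
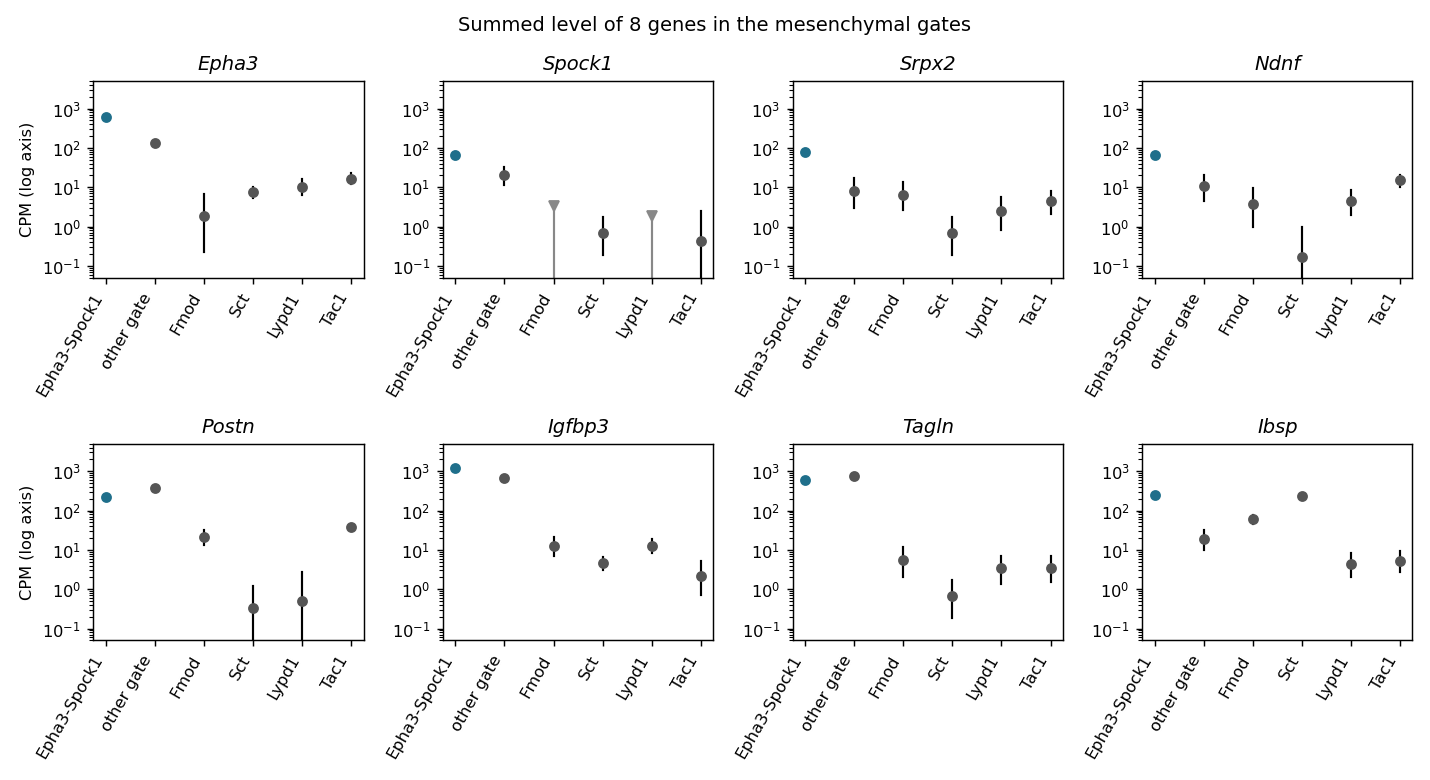
Level (CPM, log axis) of the 4 rule genes, Postn, Igfbp3, Tagln and Ibsp in 6 groups of mesenchymal cells, the Epha3-Spock1 cells leftmost; points are levels, bars exact Poisson 95% intervals and grey triangles the upper limit where no UMI was counted. Igfbp3 and Tagln were high in both groups of the follicle-like gate, whereas Ibsp was high in the members and in the Sct gate.

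The rule's genes lie apart in the genome. In the GRCm38 annotation (GENCODE M21, the build the submitters name as mm10), Epha3 is at chr16:63543534-63864175 on the minus strand and Spock1 at chr13:57421195-57908332 on the minus strand. Srpx2 is at chrX:133908426-133932446 on the plus strand and Ndnf at chr6:65671590-65712326 on the plus strand. Srpx2 has Tnmd, the gene of the ligament protein tenomodulin, as a neighbour at chrX:133850980-133865577 on the same strand, with 42848 bases and 2 annotated genes between them.

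The 250 bases before the RefSeq start of 3 rule genes and of Tnmd are printed because these genes define the cells or, for Tnmd, because its counts followed the rule genes among the members. They are from RefSeq, build GRCm38.p6, on the gene's strand, with capitals marking each CG pair.
Epha3: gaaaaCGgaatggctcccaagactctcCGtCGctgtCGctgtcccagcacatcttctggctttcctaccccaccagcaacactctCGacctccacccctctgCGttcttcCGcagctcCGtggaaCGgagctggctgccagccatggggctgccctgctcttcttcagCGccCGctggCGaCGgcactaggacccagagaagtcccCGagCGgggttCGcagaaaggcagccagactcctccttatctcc
Spock1: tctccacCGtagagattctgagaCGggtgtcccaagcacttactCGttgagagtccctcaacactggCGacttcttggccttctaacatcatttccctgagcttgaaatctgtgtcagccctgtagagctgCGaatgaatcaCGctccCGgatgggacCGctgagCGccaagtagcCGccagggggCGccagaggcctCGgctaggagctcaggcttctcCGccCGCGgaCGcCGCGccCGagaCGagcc
Srpx2: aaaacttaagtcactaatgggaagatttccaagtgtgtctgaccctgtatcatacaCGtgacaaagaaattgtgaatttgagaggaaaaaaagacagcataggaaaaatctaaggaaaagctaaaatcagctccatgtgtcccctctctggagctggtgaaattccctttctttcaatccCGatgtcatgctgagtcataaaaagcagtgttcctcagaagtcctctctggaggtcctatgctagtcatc
Tnmd: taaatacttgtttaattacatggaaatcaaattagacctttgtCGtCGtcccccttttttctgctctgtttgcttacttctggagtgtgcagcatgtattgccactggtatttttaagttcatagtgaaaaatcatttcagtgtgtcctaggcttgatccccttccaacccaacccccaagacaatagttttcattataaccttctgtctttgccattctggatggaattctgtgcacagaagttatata
These windows are chr16:63864176-63864425 (minus strand) for Epha3, chr13:57908333-57908582 (minus strand) for Spock1, chrX:133908175-133908424 (plus strand) for Srpx2 and chrX:133850758-133851007 (plus strand) for Tnmd. Epha3 and Spock1 had 16 and 20 CG pairs and 62.8% and 61.2% G and C. Srpx2 and Tnmd had 2 CG pairs each and 41.2% and 38.4% G and C. Over 32851 such windows the median was 6 CG pairs, 25.4% held at least 16 and 29.0% at most 2. TATAAA (present in 12.4% of all windows on either strand), TGTGGT (14.0%) and CTTTGA (13.8%) were in none of these windows, which says only that these letters are not in these windows.

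Against the other mesenchyme, the members stood out by insulin-like growth factor binding proteins, contractile genes, dental follicle genes and collagens, and by low odontoblast and FGF genes. The contractile and follicle genes were as high in the other cells of the follicle-like gate. The contractile markers summed to 2110 CPM in the members and 2517 CPM in the other gate cells. The dental follicle and periodontal ligament markers summed to 1626 and 1954 CPM. The Sct gate held 5876860 of the 11295053 UMIs of the other mesenchyme and weighs most in its pooled levels. Of 11612 genes measured, 1685 (14.5%) were at least 2-fold higher in the members and 1222 (10.5%) at least 2-fold lower, with a median log2 ratio of 0.11 over all genes. Screened, the counts were 1655 and 1176 of 11289. The gates themselves were cut from counts of these cells, so the comparison describes and does not test.

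Genes of the IGF list outside the rule were at least 2-fold higher in 8 of 10 cases and at least 2-fold lower in none, and the list's median log2 ratio, Igf1 included, was 3.64. Igfbp3, which encodes the main carrier of circulating IGF, had 1219 CPM in the members and 6.37 CPM in the other mesenchyme (log2 7.58, 7.24 to 7.94), and a UMI in 163 of 207 members and 31 of 997 other cells. Igfbp5 had 426 CPM in the members and 1.95 CPM in the other mesenchyme (log2 7.77, 7.16 to 8.46), yet only 73 of 207 members held a UMI of it. Igfbp4 reached 3423 CPM against 337 CPM. The receptor genes differed less. Igf1r had 157 CPM in the members and 107 CPM in the other mesenchyme, short of the 2-fold call, and Igf2r 61.4 and 23.2 CPM. Igf1 itself belongs to the gate sum, and its 1968 CPM in the members and 7.08 CPM elsewhere are part of the definition.

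All 6 contractile genes measured were at least 2-fold higher than in the other mesenchyme, with a median log2 ratio of 6.19. Tagln, which encodes the actin-binding protein transgelin, had 604 CPM in the members and 2.21 CPM in the other mesenchyme (log2 8.09, 7.52 to 8.73), in 170 of 207 and 25 of 997 cells. Acta2 had 262 CPM against 0.708 CPM (log2 8.53, 7.54 to 9.75), in 89 and 8 cells. Both genes together had a median of 4 UMIs per member, with 33 members at 0 and a highest cell at 68, whereas no cell of the other mesenchyme had over 1. The defining pericyte marker Rgs5 had 4 UMIs in all members and Higd1b 0. Of 10 smooth muscle genes 8 had UMIs in the members, and Actg2 and Des had 0. Myh11, of the same list, had 53 UMIs in the members, at 29.3 CPM against 0.177 CPM in the other mesenchyme. Pdgfrb, Abcc9 and Kcnj8, which pericytes also express, were at least 2-fold higher. Cspg4 was at least 2-fold lower, at 10.5 CPM in the members and 34.2 CPM in the other mesenchyme.

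The dental follicle and periodontal ligament list had 9 of 12 measured genes at least 2-fold higher and none lower, with a median log2 ratio of 4.03. Bmp3, a BMP family ligand that dampens bone formation, had 308 CPM in the members and 2.83 CPM in the other mesenchyme (log2 6.76, 6.25 to 7.33). Pthlh, parathyroid hormone-like hormone, had 173 CPM against 9.12 CPM (log2 4.25, 3.92 to 4.58). Smoc2, a calcium-binding matrix protein gene, had 217 CPM against 2.92 CPM. Not every ligament gene was present. The receptor gene Pth1r had 59.2 CPM in the members and 43.7 CPM in the other mesenchyme, within the 2-fold limit. Scx, the tendon and ligament transcription factor, and Aspn each had 2 UMIs over all members. Tnmd had 25.4 CPM against 0.708 CPM but a UMI in only 25 members.

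Matrix genes differed in most families, and within families as well. Of 12 non-fibrillar collagen genes outside the rule, 9 were at least 2-fold higher in the members and 1, Col23a1, at least 2-fold lower. Col4a1, a basement membrane collagen chain, had 407 CPM in the members and 6.29 CPM in the other mesenchyme, and Col12a1, a fibril-associated collagen of ligaments, 264 and 67.3 CPM. Col3a1 had 5774 CPM against 156 CPM (log2 5.21, 5.14 to 5.29) and was found in all members and in 57.2% of the other cells. Col1a1, the main collagen of bone and dentin, had 7942 CPM against 10261 CPM and was not called. Of 19 basement membrane and integrin genes 14 reached a 2-fold higher level, while Itga4 and Itgb8 (2 genes) were at least 2-fold lower. Among matrix proteases and their inhibitors 12 of 18 were at least 2-fold higher and 2, Adam12 and Adamts18, at least 2-fold lower. Of 4 small leucine-rich proteoglycan genes measured outside the rule, 2 were at least 2-fold lower and 0 higher, with Dcn at 86.8 CPM in the members and 627 CPM in the other mesenchyme, and Lum at 823 and 2346 CPM.

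Genes of the WNT pathway were divided. Of 11 secreted WNT antagonists 6 were at least 2-fold higher, while 3 were lower by 2-fold or more. Sfrp2 had 1126 CPM in the members and 18.8 CPM in the other mesenchyme, and Dkk2 224 and 0.974 CPM, while the antagonists Dkk1 (26.0 and 373 CPM) and Notum (22.1 and 399 CPM) were at least 2-fold lower. A Sfrp2 UMI stood in 90 of 207 members and 55 of 134 other gate cells, and a Dkk2 UMI in 122 and 53. The WNT ligand genes Wnt5a, Wnt5b and Wnt11 were at least 2-fold higher, and Wnt4, Wnt6 and Wnt10a at least 2-fold lower. With the enamel-rich cells left out the ratio of Wnt4 turned, at a log2 of 3.18. Axin2, a direct target of canonical WNT signalling, had 22.7 CPM in the members and 22.6 CPM in the other mesenchyme.

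In the hedgehog list 7 of 12 genes were at least 2-fold higher and 1, the ligand gene Shh, at least 2-fold lower at 1.66 CPM in the members and 10.2 CPM in the other mesenchyme. In the screened comparison Shh had 3 UMIs in the members and 14 in the other mesenchyme, under the minimum of 30 UMIs for a ratio. Hhip, which encodes a surface protein that binds hedgehog ligands, had 553 CPM against 7.08 CPM (log2 6.29, 5.96 to 6.63). Ptch1, the receptor gene and a target of the pathway, had 751 CPM against 366 CPM (log2 1.04), and its screened ratio of 0.88 fell short of the call. Gli1, another target, had 43.1 CPM against 37.8 CPM and was not called. The forkhead genes Foxf1 and Foxf2 had 250 and 242 CPM in the members, against 43.9 and 13.6 CPM in the other mesenchyme.

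FGF genes were mostly lower, 8 of 13 at least 2-fold, with 2 at least 2-fold higher. The ligand genes Fgf3 and Fgf10 had 6.64 and 3.87 CPM in the members, against 47.0 and 26.9 CPM in the other mesenchyme. The receptor gene Fgfr2 went the other way, at 195 CPM against 9.38 CPM (log2 4.38, 4.06 to 4.70). Of 16 BMP genes 3 were at least 2-fold higher, among them the antagonist gene Nog, and 5 at least 2-fold lower, among them the ligand genes Bmp2 and Bmp4. Bmp4 had 67.5 and 210 CPM.

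Epha3 was not the single Eph gene higher in these cells than in the other mesenchyme. Within the follicle-like gate the other Eph genes did not separate the members. Against the other gate cells, 0 of 6 Eph receptor genes outside the rule were called. Of 7 ephrin genes 1, Efnb2, was at least 2-fold higher there, beside 3.38% of all genes. Outside the rule, 5 of 7 Eph receptor genes were at least 2-fold higher than in the other mesenchyme, and 1, Epha2, at least 2-fold lower. Epha7 had 111 CPM in the members and 17.6 CPM in the other mesenchyme, and Ephb2 32.6 and 0.531 CPM. Ephrin ligand genes were at least 2-fold higher in 5 of 8 cases. Efna5 had 172 CPM against 25.9 CPM, and Efnb2 64.7 CPM against 10.4 CPM. Of the axon guidance genes, Ntn1, the gene of netrin-1, had 102 CPM in the members and 0.354 CPM in the other mesenchyme. A Ntn1 UMI stood in 89 of 207 members and 4 of 997 cells of other mesenchyme, and in 51 of 134 other gate cells. The adhesion receptor gene Adgrg6, which acts in myelinating Schwann cells, had 321 UMIs in the members and 1 in the other mesenchyme (log2 10.97, 8.48 to 16.28). Cxcl12, a chemokine that keeps progenitor cells in their niche, had 388 and 6.73 CPM.

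Among transcription factors, Runx2 had 385 CPM in the members and 41.3 CPM in the other mesenchyme (log2 3.22, 3.05 to 3.39) and was the single gene at least 2-fold higher of 17 Runx, Sp and mineralisation genes. In this list 11 were at least 2-fold lower than in the pooled gates, of which Sp6 and Smpd3 were at least 2-fold lower than in each of the 4 gates. The summed level of 9 osteoblast markers was 882 CPM in the members, below 5718 CPM in the Sct gate but above 537 CPM in the Fmod gate, 475 CPM in the Tac1 gate and 259 CPM in the Lypd1 gate. That of 7 odontoblast markers was 133 CPM in the members, against 414, 921, 256 and 313 CPM in the Fmod, Sct, Lypd1 and Tac1 gates, lower than in all of them. Sp7, which acts downstream of Runx2 in bone, had 62.5 CPM against 152 CPM. Bglap, the gene of osteocalcin, had 13.8 CPM in the members and 1803 CPM in the other mesenchyme (log2 -7.03, -7.65 to -6.46), most of it in the Sct gate. Reads of Bglap and its near-identical copies may have been divided among them. Dspp and Dmp1, matrix genes of odontoblasts and osteocytes, had 3 and 2 UMIs in all members. Msx2 had 17.1 CPM against 256 CPM and Dlx5 48.7 CPM against 139 CPM, whereas Pax9 had 105 CPM against 22.1 CPM and Alx1 198 CPM against 46.0 CPM. Bcl11b, a zinc-finger transcription factor, had 292 CPM against 2.66 CPM. The 15 largest ratios in each direction also included Rarres2, the gene of chemerin (log2 6.77), and Fndc1 (6.00) on the higher side. On the lower side they included the osteocalcin copy Bglap2 (-7.08), the neuronal tubulin gene Tubb3 (-4.69), the sphingomyelin genes Sgms2 (-4.00) and Smpd3 (-3.76), the cell cycle inhibitor Cdkn1a (-3.90), Gchfr (-4.48) and Plac8 (-3.34).

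Imprinted growth genes were at least 2-fold higher in 8 of 13 cases, with H19 at 183 CPM in the members and 4.78 CPM in the other mesenchyme. In 2 cases they were at least 2-fold lower. Dlk1 had 37.6 CPM against 399 CPM and the cell cycle inhibitor Cdkn1c 102 CPM against 343 CPM. The ratios of enamel genes depended on the screen. Amelx had a log2 ratio of -3.84 with all cells and 0.56 screened, and Ambn -3.61 and -2.68. In droplets of 1 to 20 UMIs Amelx made up 14930 CPM, and an Amelx UMI stood in 84.5% of the members and 81.3% of the other cells.

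**Figure D3:**
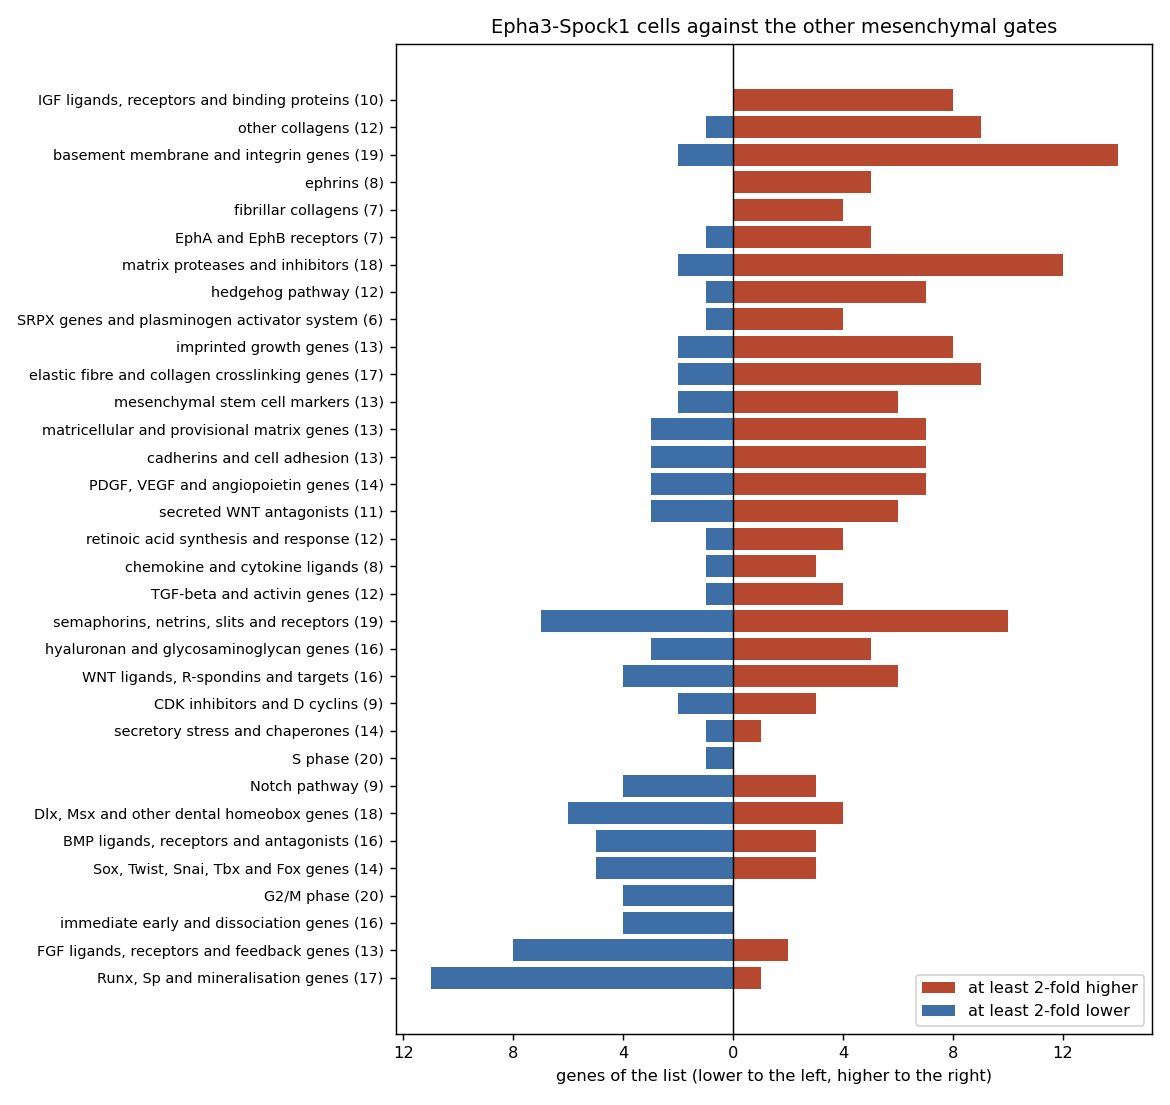
Number of genes at least 2-fold higher (right of 0) or at least 2-fold lower (left of 0) in the Epha3-Spock1 cells than in the 4 other mesenchymal gates pooled, for each functional list with 6 or more genes measured outside the rule; the number measured stands in brackets. IGF genes and ephrins have no lower member, and the Runx, Sp and mineralisation list has 11 lower and 1 higher.

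The other cells of the follicle-like gate were far closer to the members. Of 8048 genes measured, 272 (3.38%) were at least 2-fold higher in the members and 276 (3.43%) at least 2-fold lower, and the median log2 ratio was 0.00. Screened, 270 (3.53%) and 129 (1.69%) of 7652 were called, and with the macrophage-rich cells alone left out 124 were at least 2-fold lower. All 7 macrophage genes were at least 2-fold lower in the members with a median log2 ratio of -6.10, and 1 of the 7 could still be measured after the screen.

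Ibsp gave the largest ratio among the named genes that were higher. It encodes bone sialoprotein, an early matrix protein of mineralising cells and of cementum. The members had 451 Ibsp UMIs in 53 of 207 cells, against 14 UMIs in 5 of 134 other gate cells. In CPM this was 249 in the members and 18.6 in the other gate cells (log2 3.74, 2.98 to 4.63, and 3.62 screened). The highest member held 36 UMIs and 5 members held 30.6% of them. In Ptprc cells 2 of 458 held an Ibsp UMI. When every cell was first thinned to 2000 UMIs, 41 cells met the rule and the log2 ratio was -0.16 (-0.85 to 0.48). Members that still met the gate but no longer the rule then counted among the 221 other gate cells, so the groups compared differ. The Sct gate stood near the members at 237 CPM, and the Fmod, Lypd1 and Tac1 gates had 60.5, 4.41 and 5.25 CPM. Sp7 was also at least 2-fold higher than in the other gate cells, at 62.5 and 25.3 CPM (log2 1.31), but its screened ratio was 0.99. With members taken by at least 3 Epha3 UMIs alone, the log2 ratios of 6 genes described here and below were smaller, at 0.79 for Ibsp, 1.02 for Efnb2, 0.64 for Rnd3, 0.53 for Tcf7, 0.29 for Tnmd and 0.47 for Mki67. Members with fewer Epha3 UMIs then counted among the other gate cells. Runx2 did not separate the groups, at 385 CPM in the members and 345 CPM in the other gate cells.

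Several genes of cell shape and signalling followed. Efnb2 had 64.7 CPM in the members and 18.6 CPM in the other gate cells (log2 1.80, 0.99 to 2.71), in 73 of 207 and 13 of 134 cells. Rnd3, a small GTP-binding protein that loosens actin fibres, had 218 CPM against 71.9 CPM (log2 1.60, 1.19 to 2.04). Tcf7 had 107 CPM against 37.3 CPM (log2 1.52, 0.94 to 2.15). These 3 stayed above 2-fold when screened, at 1.62, 1.52 and 1.32. A Tcf7 UMI stood in 92 of 207 members and 20 of 134 other gate cells, but also in 511 of 997 cells of other mesenchyme. Bmp4 had 67.5 CPM against 26.6 CPM (log2 1.34), and 0.98 screened. The calcium channel gene Cacna1d (log2 1.58), the serine synthesis gene Phgdh (1.55), Aasdhppt (1.62), Rai14 (1.54), Yae1d1 (1.32), Tmem132c (1.21) and Pcp4 (1.18) were at least 2-fold higher with and without the screen. Amelx and Ambn were at least 2-fold higher with all cells (log2 2.65 and 3.03) and not when screened (-0.31 and -0.36).

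Of the named genes that were lower, few kept their ratio. Apoe had 147 CPM in the members and 4242 CPM in the other gate cells (log2 -4.85), and -1.35 screened; 5 of the other gate cells held 56.4% of that group's Apoe UMIs. Cebpb, a transcription factor of stress and fat cell programmes, had a log2 ratio of -2.20 and -1.47 screened, the retinal reductase gene Dhrs3 -1.48 and -1.27, and the matrix gene Tgfbi -1.24 and -1.20. Ier3, Selenop, H2-D1, Junb, Hexa, H2-K1, Serinc3, Ctsb, Tmsb4x and Hspa1a lay between -2.29 and -1.25 with all cells, and each was nearer to 0 than -1 when screened. H2-D1 and H2-K1 are close paralogs whose reads may be shared. Immediate early and dissociation genes were at least 2-fold lower in 8 of 16 cases with all cells and in 1 of 14, Dusp1, when screened.

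Of the genes that set the gate apart from other mesenchyme, some differed within it as well. No IGF gene outside the rule was at least 2-fold higher in the members and 1, Igfbp2, at least 2-fold lower (26.6 and 83.8 CPM). Igfbp3 had 1219 CPM in the members and 689 CPM in the other gate cells (log2 0.82, 0.68 to 0.96). Tagln had 604 and 763 CPM, and Acta2 262 and 522 CPM (log2 -0.99, -1.19 to -0.80), which became -1.14 when screened. Among the other gate cells 5 held 40.2% of the Acta2 and Tagln UMIs, against 17.05% in the top 5 members. Cnn1, a smooth muscle calponin gene, was at least 2-fold lower, with 13 UMIs in the members and 19 in the other gate cells. No hedgehog gene of 9 and no fibrillar collagen of 7 was called. Calls were rare among all genes measured here, with 3.38% on the higher side and 3.43% on the lower. Few or no calls among the IGF, hedgehog and fibrillar collagen genes therefore do not set these short lists apart from other genes.

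Follicle genes were divided. Tnmd had 46 UMIs in 25 members, against 3 UMIs in 3 of the other gate cells (log2 2.67, 1.03 to 5.00). Pthlh had 173 CPM in the members and 86.5 CPM in the other gate cells (log2 1.00, 0.61 to 1.41), and 0.81 screened. With members taken by at least 3 Epha3 UMIs alone the log2 ratio of Pthlh was -0.23, and with the rule read on thinned cells -1.55. In both settings gate cells that failed the changed rule counted as other gate cells. Tnn, the gene of tenascin-W, had 79.1 and 165 CPM (log2 -1.06), and Ltbp2 6 and 32 UMIs. Bmp3, Cxcl12, Igfbp5 and Pth1r had log2 ratios of -0.28, 0.13, -0.19 and 0.35, and Col1a1 and Col12a1 -0.51 and -0.19. Gli1, Ptch1 and Axin2 had 0.70, 0.50 and 0.09. None of these 9 was called.

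Genes of dividing cells were higher in the members than in the other gate cells. Of 17 G2/M genes 11 were at least 2-fold higher and none lower, with a median log2 ratio of 1.13, and screened 15 of 16 with a median of 2.68. Of 13 S phase genes 5 were at least 2-fold higher, and 7 when screened. Mki67, a marker of cycling cells, had 101 UMIs in 25 members and 14 UMIs in 5 other gate cells (55.9 and 18.6 CPM, log2 1.58, 0.77 to 2.51). The counts were uneven. In the members 5 cells held 43.2% of the UMIs of the G2/M list, and in the other gate cells 5 cells held 66.1%.

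With each cell thinned to 2000 UMIs, a UMI of Mki67, Top2a, Cdk1 or Ccnb1 was present in 25 of 203 members, 12.3% (8.13 to 17.6%), and in 4 of 118 other gate cells, 3.39% (0.931 to 8.45%). This left out 4 members and 16 other gate cells that were shallower. Unthinned the shares were 19.8% and 7.46%, and screened and thinned 12.4% and 2.83%. The intervals of these shares overlapped slightly with all cells. With the rule read on thinned cells the shares were 12.2% of the members and 7.24% of the other gate cells, and with at least 3 Epha3 UMIs alone 12.2% and 5.73%. Gate cells that failed these changed rules counted as other gate cells. Across the other gates the thinned share was 15.6% in the Fmod gate, 10.4% in the Sct gate, 35.3% in the Lypd1 gate and 34.6% in the Tac1 gate. The members thus stood with the Fmod and Sct gates and below the Lypd1 and Tac1 gates.

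**Figure D4:**
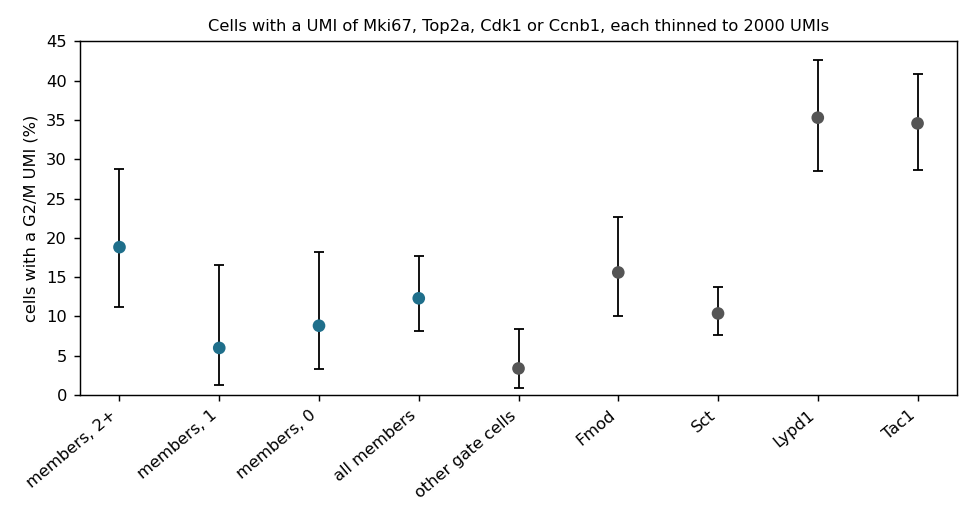
Share of cells with a UMI of Mki67, Top2a, Cdk1 or Ccnb1 (vertical axis, %) after thinning each cell to 2000 UMIs, with exact Clopper-Pearson 95% intervals; blue points are the Epha3-Spock1 cells, whole and by their Spock1, Srpx2 and Ndnf UMIs. All members stand at 12.3% and the other gate cells at 3.39%.

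Among the members, those with at least 2 UMIs of Spock1, Srpx2 and Ndnf were set beside those with 0. Median depth was close, at 8019 and 8053 UMIs per cell, and 7151 in members with 1. The members with 0 all held at least 3 Epha3 UMIs by the rule, so Epha3 itself is not compared. Members with at least 2 such UMIs needed no more than 1 Epha3 UMI. Genes that go with Epha3 can thus differ between these groups through the choice of cells. The sum of Ogn, Thbs2, Dpep1 and Igf1 also differed, with a median of 19 UMIs per cell in members with at least 2 and 34 in those with 0. The part of both in the differences below was not tested. Of 5808 genes measured, 209 (3.6%) were at least 2-fold higher in the members with at least 2 such UMIs and 230 (3.96%) at least 2-fold lower, with a median log2 ratio of 0.00. Screened, the shares called were 3.89% higher and 3.73% lower. The groups were defined after the counts of the 4 genes had been seen, and the genes named here by this comparison were chosen after their values were seen.

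Ibsp followed Spock1, Srpx2 and Ndnf. It had a UMI in 38 of 85 members with at least 2 such UMIs, in 7 of 51 with 1 and in 8 of 71 with 0, and 469, 112 and 62.6 CPM in that order (log2 2.91, 2.43 to 3.41, between the outer groups). Pthlh had 273, 130 and 76.7 CPM (log2 1.83, 1.38 to 2.31). Tnmd had 40 UMIs in 19 cells, 4 in 4 and 2 in 2. Igfbp3 had a median of 10, 4 and 2 UMIs per cell and fell short of the call (log2 0.85). Hsd11b2, which encodes a cortisol-inactivating enzyme, Tmem132c, the syndecan gene Sdc2, Rnd3 and the collagen gene Col26a1 had log2 ratios of 1.80, 1.56, 1.57, 1.33 and 1.30. The ATP-sensitive potassium channel genes Kcnj8 and Abcc9 were also at least 2-fold higher, with log2 ratios of 2.66 and 2.15.

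A second set ran the other way. Ncam1, the neural cell adhesion molecule gene, had 254 CPM in members with at least 2 UMIs of the 3 genes, 639 CPM in those with 1 and 957 CPM in those with 0 (log2 -1.91, -2.15 to -1.68). Alpl, the alkaline phosphatase gene of mineralising cells, had 93.1, 190 and 348 CPM (log2 -1.90, -2.30 to -1.51), opposite to Ibsp. Cdkn1c, Angpt1, Ntn1, Matn4, Maf and Tgfb2 had log2 ratios of -2.01, -1.82, -1.74, -1.69, -1.61 and -1.63. Sfrp2 and Hhip, both far higher in the members than in other mesenchyme, had -1.31 and -1.45. Screening moved none of these 10 ratios across -1. Acta2 and Tagln were even between the groups, with log2 ratios of 0.00 and 0.05, and Runx2 and Postn had -0.04 and 0.39.

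The cell cycle genes were higher where Spock1, Srpx2 and Ndnf were. Of 13 measured G2/M genes 8, and of 13 S phase genes 7, were at least 2-fold higher in members with at least 2 such UMIs and none lower. Over all genes 3.6% were at least 2-fold higher. Screened, 6 of 13 G2/M genes and 7 of 12 S phase genes were called. Few cells held most of these counts. The top 5 cells held 58.9% of the UMIs of the G2/M list in members with at least 2, and 80.5% in those with 0. The median was 1 UMI per cell in both. The thinned share of cells with a UMI of the 4 cell cycle genes was 18.8% (11.2 to 28.8%) in members with at least 2, 6.0% in those with 1 and 8.82% (3.31 to 18.2%) in those with 0, and these intervals overlapped. Ccnd1, the cyclin D1 gene, had 144 CPM in members with at least 2 and 65.8 CPM in those with 0. Hba-a1, a haemoglobin gene, was higher as well, at 292 and 67.3 CPM, beside 17070 CPM in droplets of 1 to 20 UMIs. Its part in the other differences was not tested.

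**Figure D5:**
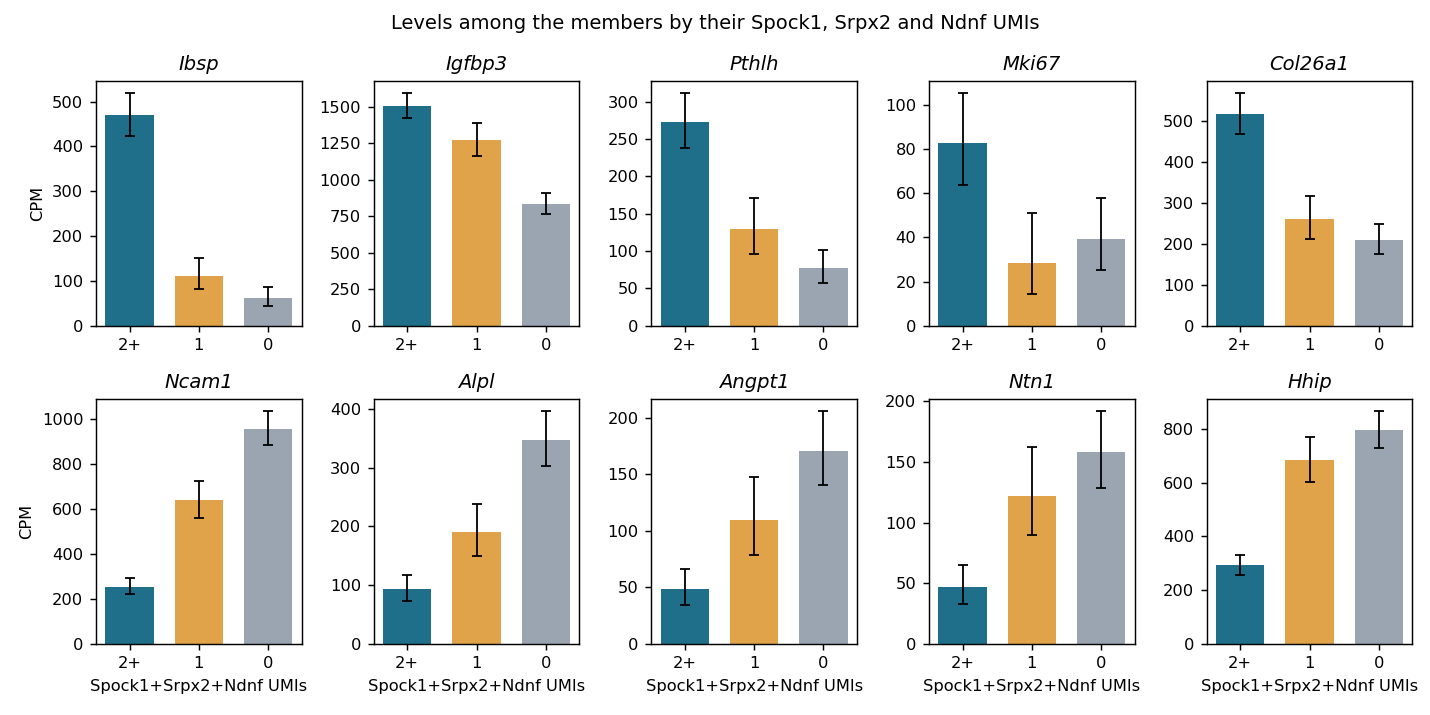
Level (CPM) of 10 genes in the members with at least 2, with 1 and with 0 UMIs of Spock1, Srpx2 and Ndnf (85, 51 and 71 cells); bars are levels and lines exact Poisson 95% intervals. Ibsp, Igfbp3, Pthlh and Col26a1 are highest in the first group, and Ncam1, Alpl, Angpt1, Ntn1 and Hhip in the last.

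The rule's limit on Cdh1 kept out some cells that otherwise met it. Cdh1 encodes E-cadherin, an adhesion protein of epithelia, and this gene was singled out after its values were seen. There were 17 cells that met every other condition of the rule and were left out by Cdh1 alone. They held 64 Cdh1 UMIs, with up to 14 in 1 cell, a level set by how they were picked. Their Epha3 and Igf1 counts are fixed in the same way, since these genes belong to the rule. Of genes the rule did not use, Krt5 was at 0, Krt14 had 1 UMI and Col1a1 stood at 7648 CPM, beside 7942 CPM in the members. Igfbp3 had 503 CPM in these 17 cells, with a UMI in 16 of them, beside 1219 CPM and 163 of 207 members. Ibsp stood at 283 CPM in the 17 cells, beside 249 CPM in the members. Its 63 UMIs in the 17 cells came from 5 cells, and 1 of these held 32. Since the rule allows at most 1, Cdh1 in the members, 20 cells with 1 UMI, cannot be read as a level. With Cdh1 not used, the gate gave 14.5% of members with a thinned G2/M UMI.

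Cells with at least 2 UMIs of Spock1, Srpx2 and Ndnf were rare outside the gate. Of 136 such cells among all those kept, 85 were members, 5 were other cells of the follicle-like gate, 9 were in other gates and 13 in none. A further 20 had been set aside by Epcam and Cdh1 and 4 by Ptprc.

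Marker sums of other lineages in the members differed in size. The 7 dental epithelium markers, enamel genes among them, summed to 3952 CPM in the members, 592 CPM in the other gate cells and 50968 CPM in the other mesenchyme, and 1 member held 3892 of the members' 7144 UMIs. Screened, the sums were 402, 526 and 602 CPM. Of 7 endothelial markers Tie1 and Cldn5 were at 0 and the sum was 21.02 CPM, against 5849 CPM in endothelial cells. Of 7 Schwann cell markers Sox10 and Erbb3 were among those at 0 and the sum was 7.74 CPM. The macrophage list summed to 48.1 CPM in the members, 3064 CPM in the other gate cells and 14280 CPM in Ptprc cells. Of 6 osteoclast markers 4 were at 0 in the members, and their sum of 148 CPM, beside 145 CPM in the other gate cells, 15.3 CPM in the other mesenchyme and 351 CPM in Ptprc cells, came from Mmp9 and Acp5. Both were at least 2-fold higher in the members than in the other mesenchyme, with and without the screen. No UMI of 4 erythroid markers was counted in them. Where the enamel, macrophage and depth values above move with a result, their part in it was not tested.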

How the data were processed

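RNA of single cells was counted with the 10x 3 prime v3 kit, and the authors deposited 1 unfiltered matrix of raw UMI counts, 31053 genes by 6794880 barcodes with 68931830 UMIs in all. Per the file headers it was written by software version 3.0.2, and the submitters' processing notes name mm10, R and Seurat, both at version 3.4.1. The aligner is not named in the labels or headers. No column of per-sample values was left unused (0 columns).

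Barcodes with at least 500 genes, at most 20% mitochondrial UMIs and at most 5% haemoglobin UMIs were kept, 4543 of 5336. The rule for the members was then applied to their counts. UMIs were summed per group and divided by the group's total (CPM). Ratios have exact conditional binomial 95% intervals, levels exact Poisson intervals and shares Clopper-Pearson intervals. No test between groups was possible with a single sample. Computations used Python 3.11.15, numpy 2.4.6, scipy 1.17.1 and pandas 2.3.3, and the counting code was tested on simulated data. Doublets were scored with Scrublet in scanpy 1.11.5 and not removed. Of 4775 barcodes scored, 122 were above 0.15, among them 1 member, 5 of the other gate cells and 13 of the other mesenchyme.

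Genes named in a comparison were up to 15 with the largest ratio in each direction, computed with 5 CPM added and with at least 100 UMIs in 25% of the cells of the higher side, called genes of 51 functional and marker lists, and a short list of genes of interest. Others are said to be chosen after their values were seen. The members and the lists were chosen with earlier results of these data known. Some genes of the lists are not reported here.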

Additional observations from a re-analysis of the deposited data

How the results depend on the processing

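No paired analysis was possible because the matrix is 1 sample. Where a setting changes the rule, gate cells that fail the changed rule count as the other gate cells. The number of members was 207 and became 41 with the rule read on cells thinned to 2000 UMIs, 125 without cells with 2 or more G2/M UMIs, 90 with at least 2 UMIs of Spock1, Srpx2 and Ndnf and no use of Epha3, and 133 with Epha3 and 1 of those genes present. The thinned G2/M share of 12.3% became 0.826% without the cells with 2 or more G2/M UMIs, which that setting removes by construction, and 18.0% with at least 2 UMIs of Spock1, Srpx2 and Ndnf. The share in the other gate cells, 3.39%, became 0% and 5.60% under those 2 settings, 7.24% with the rule read on thinned cells, 5.73% with at least 3 Epha3 UMIs and 5.29% with Epha3 and 1 of the other genes. Against the other gate cells, the 272 genes at least 2-fold higher became 116 without the G2/M cells, 134 with at least 3 Epha3 UMIs and 680 with genes of at least 10 UMIs. The 276 lower genes became 123 with a gate of at least 8 UMIs, 144 without the G2/M cells, 124 without macrophage-rich cells, 129 without macrophage-rich or enamel-rich cells, 454 with at least 2 UMIs of Spock1, Srpx2 and Ndnf, and 750 with genes of at least 10 UMIs. Counts against the other mesenchyme stayed within 1.5 times under every setting run.

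Single genes at least 2-fold apart turned direction in 27 values against the other gate cells and 5 against the other mesenchyme; the causes were not tested. Against the other gate cells, the rule read on thinned cells gave log2 ratios of 0.10 for H2-K1, 0.55 for Hexa, -0.16 for Ibsp, -1.55 for Pthlh and 0.58 for Tnn. Against the other mesenchyme it gave 0.22 for Cdk1 and -0.69 for Wnt5b. Enamel genes turned most often. Against the other gate cells Amelx had -1.36 with a rule sum of at least 5, -0.29 without enamel-rich cells, -0.31 without macrophage-rich or enamel-rich cells, -2.58 with at least 2 UMIs of Spock1, Srpx2 and Ndnf, -2.21 with Epha3 and 1 of those genes, and -1.09 with Cdh1 not used. Ambn had -0.12, -0.45, -0.36, -2.97, -3.05 and -2.46 under those 6 settings. Enam had -1.27, -1.39, -3.86, -4.34 and -2.42 under the last 5 of them and -0.050 without the G2/M cells. Against the other mesenchyme Amelx had 0.56 under both enamel screens and Wnt4 3.18 without enamel-rich cells. With at least 2 UMIs of Spock1, Srpx2 and Ndnf, Pcp4 had -0.11 against the other gate cells. With at least 3 Epha3 UMIs, Pthlh had -0.23 and Spock1 -0.58, and with Epha3 and 1 of the other rule genes Wnt4 had -0.77. The settings that leave out macrophage-rich or enamel-rich cells, change the use of Epha3 or drop Cdh1 were chosen after the data had been seen.

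Without genes above 1% of the UMIs, the median log2 ratio of all genes against the other mesenchyme was 0.04 in place of 0.11. With 1 matrix and no barcode map, differences between animals or lanes could not be measured. At these depths a gene of few UMIs can be missed in most of the cells that hold it.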
